A study of Pimephales promelas with 10 samples.

Results

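The probes described here read at least 3 log2 units higher on the array of 1 tank of fathead minnow testes than on any other array with a value. A member is a gene probe that was well above background on its highest array and whose level there lay at least 3 log2 units, or 8-fold, above the second highest of the 10 arrays. The rule was met by 154 of the 49849 gene probes (0.309%), or 0.391% of the 39336 probes that were well above background on their highest array. The members were thus chosen by their levels on all 10 arrays, and their counts per array, levels and margins are descriptions with no test.

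Adult male fathead minnows (Pimephales promelas), a small fish of aquatic toxicology, were kept for 21 days in water with IMX-101 at 12.6 mg/L (exposed) or in water at 0 mg/L (control). IMX-101 is an explosive formulation made to resist accidental detonation, with NTO (nitrotriazolone), DNAN (dinitroanisole) and NQ (nitroguanidine) as its components, and its concentration is given with the nominal value for DNAN. Each group had 5 tanks with 2 fish each, per the labels, and each array carries whole testis RNA from a single tank. In the whole study 24 of 31 replicates pooled the RNA of 2 fish, and the rest hold that of a single fish. Which of the 10 replicates hold 1 fish was not given in the sources used here, so a high value on 1 array can come from 1 or from 2 animals. The arrays are named by group and replicate, from exposed 1 to exposed 5 and from control 1 to control 5.

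A testis holds germ cells at successive stages of sperm formation, Sertoli cells that nurse them, and interstitial cells that include the steroid-producing Leydig cells. In fish, germ cells of the same stage develop together in cysts, and the stages present change with the breeding state. None of these cell types could be read from the members. The files pair the probes with no gene, and a search of the RefSeq table for their names matched 0. For the same reason the tissue label could not be checked against markers, and no roles or sequences are given. In such bulk RNA, more cells of a type and more RNA per cell cannot be told apart.

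All levels below are log2 processed intensities relative to the 75th percentile of their own array, so that 0 is a fairly bright spot. Exposed 5 stood apart in signal. On that array 40.3% of gene spots were well above background, against 81.4% to 86.5% on the other 9, and its lowest level was -4.28, against -8.46 to -7.11 on the others. The arrays lay on 3 slides. Slide 1 held exposed 1 and controls 1, 2 and 3, slide 2 held exposed 2 and 3 and controls 4 and 5, and slide 3 held exposed 4 and 5 alone, so slide 3 and exposure cannot be told apart.

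Most members were highest on 3 of the exposed arrays. There were 53 on exposed 3, 30 on exposed 4 and 53 on exposed 5, with 2 on exposed 1 and 4 on exposed 2. The control arrays held 2, 1, 1, 6 and 2 members, in the order of control 1 to 5. Together 142 members (92.2%) were highest on an exposed and 12 on a control array. By slide the counts were 6, 65 and 83 for slides 1, 2 and 3. Of the 39336 probes well above background on their highest array, 10.952%, 5.611%, 9.815%, 23.185% and 8.051% were highest on exposed 1 to 5. On control 1 to 5 these shares were 9.119%, 14.686%, 5.636%, 7.894% and 5.051%. An even split between groups or slides is thus not the reference for the members. Exposed 2 lay on the same slide as exposed 3 and held 4 members.

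**Figure D1:**
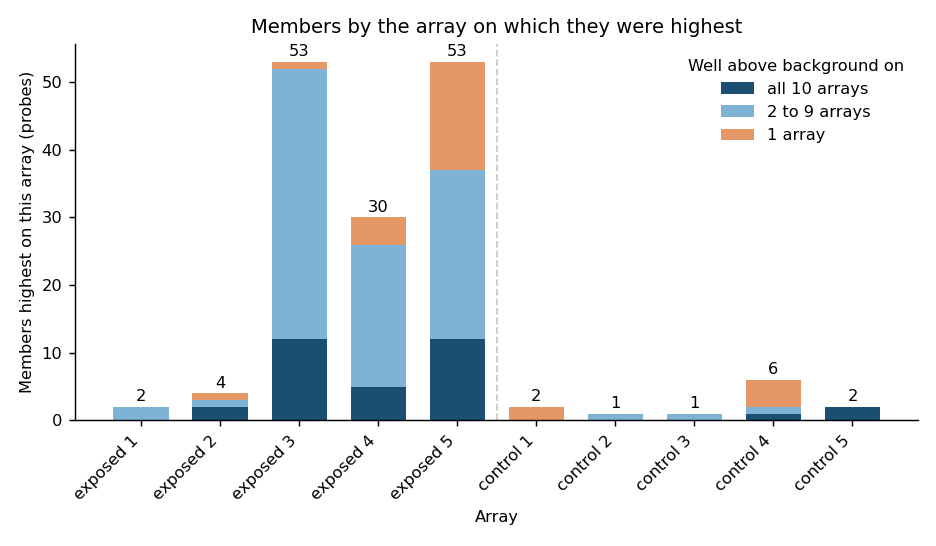
Number of members (vertical axis, probes) by the array on which they were highest (horizontal axis), split by the number of arrays on which the probe was well above background. Exposed 3 and exposed 5 held 53 members each, but 16 of those of exposed 5 and 1 of those of exposed 3 were well above background on that array alone.

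These counts did not follow the number of probes of which an array was the highest. Exposed 4 was the highest array of 9120 probes, of which 0.329% were members. Exposed 3 was the highest of 3861 probes, with 1.37% members, and exposed 5 of 3167, with 1.67%. On control 2, the highest array of 5777 probes, 0.017% were members.

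The threshold cut through a continuous tail. The members just inside it were UF_Ppr_AF_116659, with a margin of 3.01 on exposed 5, and SINGLET_5702, with 3.02 on exposed 3. Just outside were UF_Ppr_AF_102588, with 2.998 on exposed 4, and UF_Ppr_AF_111292, with 2.995 on exposed 3. A further 429 probes had margins of 2 to 3, of which 202 were highest on exposed 3, 132 on exposed 4 and 63 on exposed 5. The median margin of the members was 3.49, and 37 members had at least 4, of which 21 were on exposed 5, 6 on exposed 3 and 4 each on exposed 4 and control 4.

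The signal of the members on their own array ran from bright to dim. On exposed 3 the median level of its members was 3.13, and 52 of 53 lay above the 75th percentile of the array. On exposed 4 the median was 0.25, with 16 of 30 above the 75th percentile. On exposed 5 it was -0.72, with 13 of 53 above. Of the 53 members of exposed 3, 34 were well above background on at least 9 arrays, against 14 of 30 for exposed 4 and 17 of 53 for exposed 5. These are levels on the highest array of each member, which the rule used, and on the other arrays the median level of the members of exposed 3 lay between -4.31 and -1.42.

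For 42 members the second highest array was itself not well above background, so that its value there is only an upper bound. These were 3 of the members of exposed 3, 11 of exposed 4 and 20 of exposed 5. For 27 members the second highest array was exposed 5, among them 16 of the 30 of exposed 4. When every value not well above background was raised to the lowest detected level of its array, 135 members kept a margin of 3. They were 52 on exposed 3, 17 on exposed 4 and 53 on exposed 5.

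The largest margin belonged to SINGLET_15475 on exposed 4. Its level was -2.76, -2.77, -3.04, 6.19 and -2.53 on exposed 1 to 5, against -2.44, -2.80, -2.95, -2.81 and -3.06 on control 1 to 5. The other 9 arrays lay within a narrow band, and exposed 4 lay 8.64 log2 units, or 398-fold, above the next. The probe has 1 spot, which lies in the first column of the array, and 0 of its 6 nearest spots were raised by 3 log2 units or more. The other leading members of exposed 4 were dim elsewhere. SINGLET_7579 had 1.49 on exposed 4 and was not well above background on any other array. SINGLET_8212 had -0.76 there, was well above background on 2 arrays, and has no value on exposed 5, where its spot was left out as an outlier. In the authors' deposited table, which has a value there, its margin over the next array was 0.57, so it was no member in that table.

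The leading members of exposed 2 were a pair of neighbouring spots. SINGLET_6866 had levels of -0.21, 5.79, -0.86, -0.36 and -0.38 on exposed 1 to 5, against -1.08, -1.17, -0.81, -0.67 and -0.59 on control 1 to 5. SINGLET_30236 had -0.03, 5.96, -0.05, 0.00 and 0.35 on exposed 1 to 5, against 0.18, 0.03, 0.30, 0.52 and 0.22 on control 1 to 5. Both were even across 9 arrays and stood 6.00 and 5.45 log2 units higher on exposed 2. They adjoin each other on the array, 4 of the 6 spots nearest to each were raised by at least 3 log2 units too, and the median deviation of these neighbours was 5.88 for SINGLET_6866 and 6.65 for SINGLET_30236. The pixel spread of their local background was 21.8 and 21.7 intensity units, against an array median of 9.56. CONTIG9899, the third leading member of exposed 2, had 0.83 there and -2.70 on exposed 4, the next highest, with 0 raised neighbours.

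**Figure D2:**
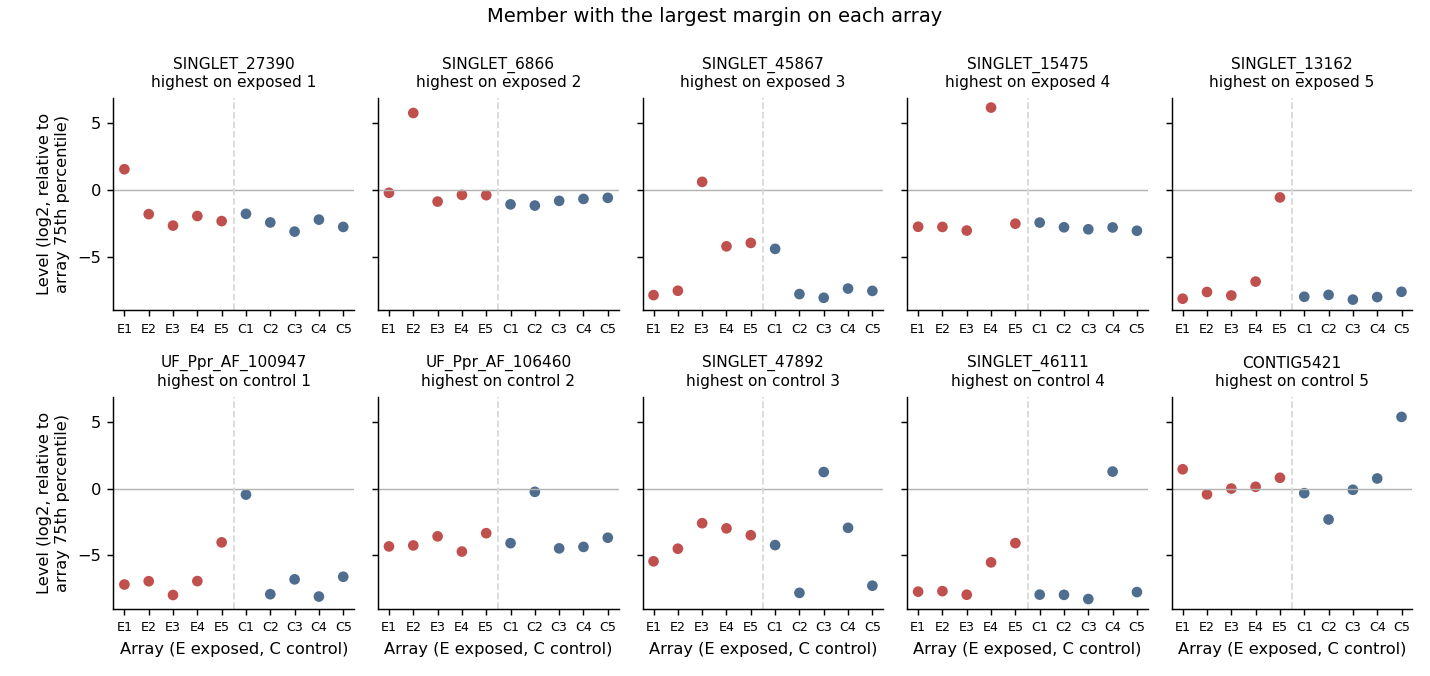
Level (vertical axis, log2 relative to the 75th percentile of the array) of the member with the largest margin on each array, over the 5 exposed arrays (E1 to E5, red) and the 5 control arrays (C1 to C5, blue). Each panel has 1 point far above the rest, at 6.19 for SINGLET_15475 on exposed 4 and at 1.28 for SINGLET_46111 on control 4.

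On exposed 5, a bright and 2 dim probes led. SINGLET_13162 had -8.16, -7.66, -7.92, -6.87 and -0.56 on exposed 1 to 5, against -8.02, -7.87, -8.23, -8.04 and -7.64 on control 1 to 5, and was well above background on exposed 5 alone. CONTIG9783 had -0.72 on exposed 5, the next highest was -6.47 on exposed 3, and it too was well above background on 1 array. SINGLET_23977 had -0.47, -0.13, -0.09, 0.04 and 5.87 on exposed 1 to 5, against -0.43, -0.24, -0.20, -1.18 and -0.22 on control 1 to 5. It was well above background on all 10 arrays, and 2 of its 6 nearest spots were raised. The highest of these neighbours lay 9.33 log2 units above its median on the other arrays, while the median deviation of the 6 was 0.39. Whether the value of SINGLET_23977 on exposed 5 depends on its position was not tested.

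The leading members of exposed 3 had wide spreads on the other arrays. SINGLET_280 had -1.94, -2.12, 3.97, -0.90 and -3.96 on exposed 1 to 5, against -0.60, -5.62, -4.82, -3.80 and -2.46 on control 1 to 5. The control values lay between -5.62 and -0.60, and control 1 came nearest to exposed 3. SINGLET_45867 had 0.61 on exposed 3, followed by -3.97 on exposed 5 and -4.42 on control 1, and SINGLET_9960 had 0.96, followed by -3.60 on exposed 1. Their margins were 4.58, 4.57 and 4.56 for SINGLET_45867, SINGLET_280 and SINGLET_9960, and both SINGLET_45867 and SINGLET_9960 were well above background on 3 arrays.

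On exposed 1 both members were measured in nearly every tank. SINGLET_27390 had 1.56, -1.81, -2.67, -1.95 and -2.33 on exposed 1 to 5, against -1.79, -2.44, -3.12, -2.22 and -2.77 on control 1 to 5. UF_Ppr_AF_101730 had 1.55 on exposed 1 and -1.76 on exposed 2, the next highest. The 2 probes tracked each other on the 8 arrays other than exposed 1 and exposed 5 (Pearson r = 0.987 over 8 arrays and 0.712 with exposed 5 included, given as a description).

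Among the control arrays, control 4 held 4 members with nearly the same profile. SINGLET_46111 had -7.73, -7.69, -7.96, -5.53 and -4.09 on exposed 1 to 5, against -7.96, -7.97, -8.29, 1.28 and -7.76 on control 1 to 5. CONTIG5887 and SINGLET_46110 had 1.03 and 0.91 on control 4, and UF_Ppr_AF_114276, named after its values were seen, had 0.83. Each of the 4 was well above background on control 4 alone, so their likeness on the other arrays is one between background readings. Their margins were 5.37, 5.01, 4.84 and 4.78. The values of these probes on exposed 5 were near the floor of that array, which set the second highest level.

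The other control members were 2 each on control 1 and control 5, 1 each on control 2 and control 3, and 2 more on control 4. CONTIG5421 had 1.46, -0.42, 0.01, 0.14 and 0.82 on exposed 1 to 5, against -0.34, -2.31, -0.08, 0.77 and 5.39 on control 1 to 5, and UF_Ppr_AF_107325 had 4.25 on control 5 and at most 0.93 elsewhere. UF_Ppr_AF_100947 and SINGLET_42736 had -0.44 and -0.29 on control 1, where alone they were well above background. UF_Ppr_AF_106460 had -0.24 on control 2, against -3.34 on exposed 5, the next highest, and SINGLET_47892 had 1.25 on control 3, against -2.59 on exposed 3.

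Most members could not be checked on a second spot. Of the 154, 141 have 1 spot and 13 have 2 (8.44%, against 16.7% of all probes with more than 1 spot). Both spots lay within 0.5 log2 units of each other on the highest array for 11 of the 13, and the largest difference among these was 0.118. The rule used the mean of the spots, so a probe with 1 deviating spot passed less readily. Their agreement and the low share of members with 2 spots are thus partly set by the rule. How many of all probes with 2 spots agree in this way was not counted. For UF_Ppr_AF_112904 the 2 spots on exposed 3 read 4.33 and 4.29, and for UF_Ppr_AF_118367 on exposed 5 they read 4.50 and 4.48. The spots of the other 2 differed. UF_Ppr_AF_104919 read 6.21 and -0.14 on control 4, so its membership rests on 1 spot, and UF_Ppr_AF_112662 read -0.88 and -4.08 on exposed 5, where the lower spot was not well above background. All 6 such members of exposed 3 and 3 of the 4 of exposed 5 were among the 11. These and the probes named in the next paragraphs were chosen after their values were seen, except where the naming rule already gave them.

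Raised neighbouring spots were common over the whole of exposed 5. They were more frequent around the members than over all gene spots on exposed 4 and exposed 5, and not on exposed 3. A neighbour was counted as raised when it lay at least 3 log2 units above its median on the other arrays, with no condition on background. The lowest level of exposed 5 was -4.28, against -7.11 or lower on the others. A neighbour at that floor and dim elsewhere could thus count as raised on exposed 5. The raised neighbours there differed in how far they stood up. The highest deviation was 9.33 log2 units beside SINGLET_23977, 6.29 beside UF_Ppr_AF_108467 and 5.70 beside CONTIG3939. It was 3.06 beside 1 spot of UF_Ppr_AF_118367. At least 1 of the 6 nearest spots was raised for 28 of 57 member spots on exposed 5 (49.1%, against 35.8% of all gene spots of that array). The shares were 5 of 30 on exposed 4 (16.7%, against 8.20%) and 4 of 59 on exposed 3 (6.78%, against 7.79%). Members adjoined each other in 2 places, the pair of exposed 2 and SINGLET_14170 beside UF_Ppr_AF_108467 on exposed 5. Other members of exposed 5 lay close together without adjoining. UF_Ppr_AM_119753, CONTIG3939 and SINGLET_37257 lay in rows 175, 177 and 179 and columns 29, 28 and 29. SINGLET_11711 and SINGLET_7633 lay in row 201, columns 27 and 28. CONTIG1595 and SINGLET_25360 lay in row 321, columns 50 and 51. SINGLET_8589 and CONTIG4610 lay in rows 193 and 196, columns 22 and 23. SINGLET_8682 and CONTIG9847 lay in rows 161 and 164, columns 21 and 19. SINGLET_41269 and SINGLET_13527 lay in rows 122 and 124, columns 23 and 27. The list is not complete. Other members lay elsewhere on that array, and crowding over wider areas was not measured. The parts of position on the array and of the floor of exposed 5 in the counts were not tested.

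The rule keeps the other 9 arrays at least 3 log2 units below the highest one and does not set their order. Over the other 9 arrays the mean pairwise Pearson r was 0.388 among the 53 members of exposed 3, 0.441 among 29 of exposed 4 and 0.167 among 53 of exposed 5, against 0.052, 0.064 and 0.051 over all pairs of probes with values on the same arrays. Without exposed 5, whose floor the dim probes share, r was 0.426 for exposed 3 (all probes 0.043) and 0.291 for 30 members of exposed 4 (all probes 0.042). These are descriptions across probes that share 8 or 9 arrays and the same scaling.

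Very close profiles joined 34 of the 101 members that were well above background on at least 5 of the other 9 arrays. Members of the same array were linked where r over those 9 arrays was at least 0.95, which gave 13 sets. Exposed 3 had 10 sets with 25 of its 47 such members, exposed 4 had 1 set of 5 among 21, and exposed 5 had 1 pair among 24. On control 5 its 2 such members, CONTIG5421 and UF_Ppr_AF_107325, formed 1 pair (r = 0.953). The share of all probes that would be linked in this way was not counted. Several probes can belong to 1 transcript, which the files do not show, so the 154 probes stand for an unknown smaller or equal number of transcripts.

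A set of 4 on exposed 3 held CONTIG5980, SINGLET_11447, SINGLET_1253 and UF_Ppr_AF_109734 (r from 0.987 to 0.999). CONTIG5980 had levels of 1.07, 0.46, 4.23, 0.08 and -0.42 on exposed 1 to 5, against -0.98, -0.34, -2.17, -0.74 and -1.63 on control 1 to 5. The order of the arrays was nearly the same for the other 3 probes, with exposed 1 second and control 3 lowest. CONTIG432, CONTIG434 and SINGLET_3549 formed a set of 3 on the same array. CONTIG432 had 1.05, -0.63, 4.82, -1.79 and -2.76 on exposed 1 to 5, against -4.02, -3.63, -2.82, -3.81 and -2.98 on control 1 to 5. In both sets exposed 1 and exposed 2 came next after exposed 3. In a further set, CONTIG1249, CONTIG2056 and UF_Ppr_AF_117349, control 1 came second instead, and CONTIG2056 had 3.11, 2.13, 6.94, 2.01 and -0.48 on exposed 1 to 5, against 3.83, -2.71, -2.01, 1.27 and 1.31 on control 1 to 5. The members of exposed 3 were thus not 1 profile.

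**Figure D3:**
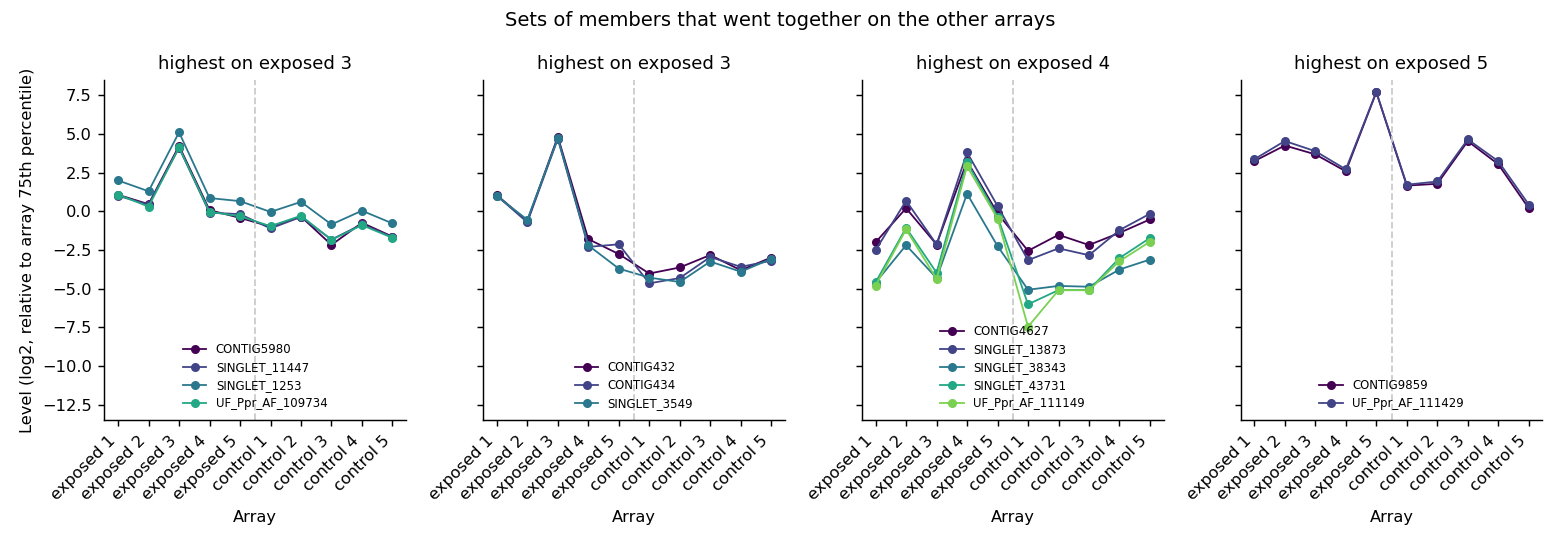
Level (vertical axis, log2 relative to the 75th percentile of the array) of 4 sets of linked members over the exposed and control arrays, 1 line per probe. The 2 sets of exposed 3 reach 4 to 5 there and differ on the other arrays, the set of exposed 4 has its next highest values on exposed 2 and exposed 5, and the pair of exposed 5 reaches 7.69 and 7.71.

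The set of exposed 4 held CONTIG4627, SINGLET_13873, SINGLET_38343, SINGLET_43731 and UF_Ppr_AF_111149. SINGLET_43731 had -4.59, -1.06, -3.97, 3.17 and -0.34 on exposed 1 to 5, against -6.01, -5.09, -5.08, -3.02 and -1.72 on control 1 to 5. All 5 probes had exposed 2 or exposed 5 as their second highest array and were well above background on at least 9 arrays. On exposed 5, CONTIG9859 and UF_Ppr_AF_111429 were the brightest members. CONTIG9859 had 3.24, 4.25, 3.68, 2.58 and 7.69 on exposed 1 to 5, against 1.66, 1.78, 4.53, 3.04 and 0.20 on control 1 to 5, and UF_Ppr_AF_111429 had 7.71 on exposed 5 (r = 0.999 over the other 9 arrays). This pair was measured well on all 10 arrays, unlike most members of exposed 5.

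For exposed 3 and exposed 4, the probe nearest to a member on the other 9 arrays often shared its high array. For the 47 such members of exposed 3, 37 nearest probes (78.7%) were also highest on exposed 3, against 8.80% of all probes considered, and 31 stood there at least 1 log2 unit above every other array, against 1.88%. Of these 47 nearest probes, 22 were members themselves, which the rule places at least 3 log2 units above on exposed 3. For exposed 4, 13 of 21 nearest probes (61.9%) were highest there, against 19.7%, and 6 stood at least 1 log2 unit above, against 2.93%. Of these 21 nearest probes, 4 were members, which enter both counts by the rule. For exposed 5 the counts were 10 of 24 (41.7%, against 17.0%) and 2 of 24, against 1.80%. The last 2 were the members CONTIG9859 and UF_Ppr_AF_111429, each the nearest probe of the other. The shares over all probes are thus no reference for the part of these counts that members make up. Elsewhere the nearest probes highest on the same array were 0 of 2 each for exposed 1, exposed 2 and control 5. They were 0 of 1 each for control 2 and control 4, and 1 of 1 for control 3. Probes of 1 transcript enter these counts too, and the difference between the arrays was not tested.

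On the arrays other than exposed 3, its members also had higher levels in exposed than in control testes, given here as a description. Their median level was -1.46, -1.42, -1.59 and -3.05 on exposed 1, 2, 4 and 5, against -2.81, -4.31, -3.24, -3.35 and -1.78 on control 1 to 5. Relative to the control mean of each probe, the median difference was 1.26, 1.45, 1.25 and 0.69 log2 units on exposed 1, 2, 4 and 5, and 49, 50, 44 and 35 of the 53 members were above it. The median level on exposed 5 (-3.05) lay below -2.94, the lowest level well above background on that array. Most values of exposed 5 are thus near its floor and only upper bounds, and so is what they add to these differences. Over all probes the median difference was -0.18, 0.01, 0.13 and 0.21 on the same 4 arrays, and 37.0%, 50.7%, 57.6% and 62.2% of probes were above it. Set against the mean of the other 4 controls, control 5 also had 35 of the 53 members above it, with a median difference of 0.76, against 43.2% of all probes. The groups overlapped, since control 1 was the second highest array of 16 members. Control 2 alone was the lowest of the other 9 arrays for 29 members.

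With exposed 3 left out, 49 of the 53 members were higher in exposed testes over the 4 exposed and 5 control arrays (all probes 56.8%), with a median difference of 1.15 log2 units, against 0.07 over all probes. For 8 of the 53 the lowest of the 4 exposed values was higher than the highest control value, which held for 1.20% of all probes. The 8 are not all separate profiles. They include the linked probes CONTIG432 and CONTIG434, SINGLET_1253 and SINGLET_11447, and CONTIG6213 and UF_Ppr_AF_119067. SINGLET_9960, also among them, was well above background on only 3 arrays. The remaining probe, SINGLET_3732, was in no linked set and was well above background on 9 arrays. Within slide 1, with exposed 1 against 3 controls, 49 of 53 were higher (all probes 35.5%) and the median was 1.73, against -0.18 over all probes. Within slide 2, with exposed 2 against 2 controls, 49 of 53 were higher (all probes 54.7%) and the median was 1.06, against 0.07 over all probes. Each slide then has a single exposed tank, and the members are not replicates of it, so these values carry no test and the part of slide was not tested. Slide 3 holds exposed arrays alone and gives no value. With a further array left out the median lay between 0.78, without control 2, and 1.37, without exposed 5.

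**Figure D4:**
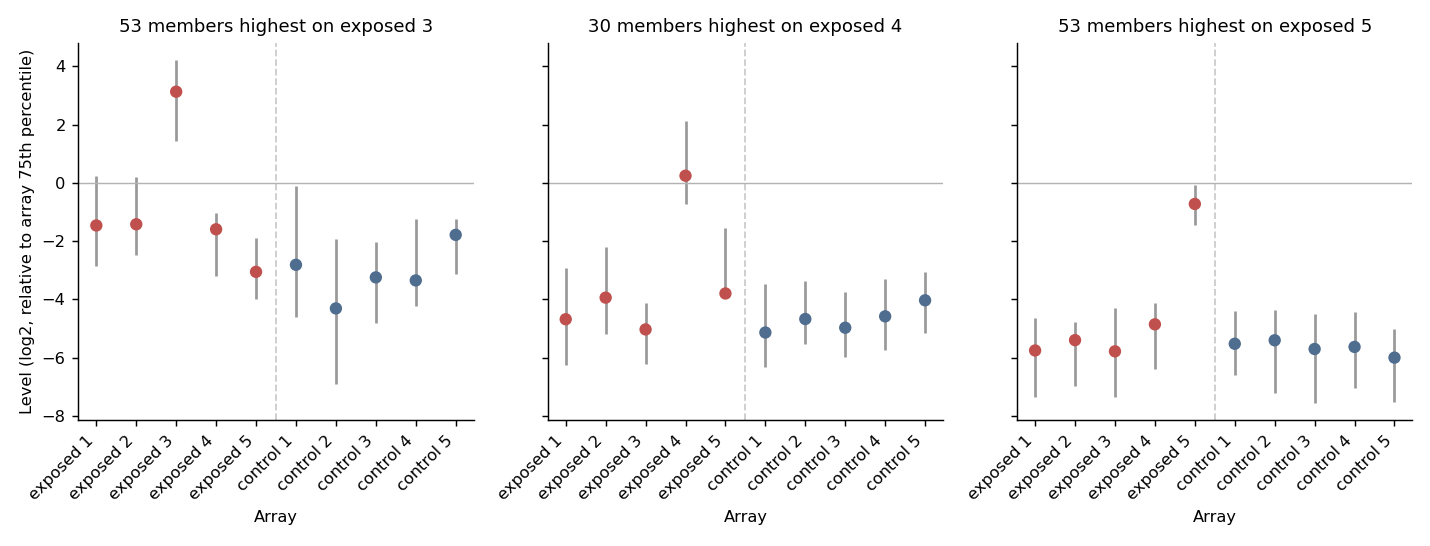
Median level (points) and quartiles (bars) of the members of exposed 3, exposed 4 and exposed 5 on each array (horizontal axis; exposed red, control blue), in log2 units relative to the 75th percentile of the array (vertical axis). Apart from their own highest array, the members of exposed 3 had medians of -3.05 to -1.42 on exposed and -4.31 to -1.78 on control arrays, and those of exposed 5 had medians of -5.78 to -4.86 on exposed and -6.00 to -5.40 on control arrays.

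For the members of exposed 4 and exposed 5 the median differences were smaller. Without exposed 4, 25 of its 30 members were higher in exposed testes (all probes 49.6%), with a median difference of 0.40, and without exposed 5 as well the median was 0.15 with 20 of 30 higher (all probes 37.7%). Within slide 2 the median was -0.09 with 11 of 30 higher (all probes 46.0%), and within slide 1 it was 0.26 with 19 of 30 higher (all probes 35.5%). Without exposed 5, 33 of its 53 members were higher (all probes 47.3%), with a median of 0.24. Within slides 1 and 2 the medians were -0.19 and 0.13, with 16 and 36 of the 53 higher (all probes 35.5% and 46.0%). Without exposed 4 too, 26 of the 53 were higher (all probes 37.7%). Whether the difference was larger for the members of exposed 3 than for these was not tested.

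A test of exposed against control over all probes called none of the members. With limma (a two-sided test with group alone in the model and Benjamini-Hochberg adjustment over 46724 probes), 0 of 154 members passed an adjusted p of 0.05, and 2 probes did in all (0.00428%). At an unadjusted p under 0.05 there were 25 members, each higher in exposed testes, and 4031 probes (8.63%). The smallest adjusted p of a member was 0.447. The rule makes each member well above background on its own high array, so all 154 passed the filter, and that array is part of the contrast, so nothing is read from these counts. Counting this fit, those under other settings and those with an array left out, 23 in all, limma called 0 members in each.

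The same fit without their own highest array gave no calls either. Without exposed 3, 52 of its 53 members could be tested, 48 (92.3%) were higher in exposed testes, against 53.8% of all probes, and the median log2 change was 1.12, against 0.04. In this fit 19 of the 52 were higher at an unadjusted p under 0.05, against 4.96% of all probes, and 0 were lower, against 5.04%. Values not well above background, such as many of exposed 5, enter this fit. SINGLET_9960 and SINGLET_33412, among the 19, were well above background on only 3 arrays. Among the 19 were all probes of the linked sets of CONTIG5980 and of CONTIG432. The linked pair CONTIG6213 and UF_Ppr_AF_119067 (r = 0.964) was among them too. The 19 are thus not all separate profiles, and probes of 1 transcript can be counted more than once. None passed the adjusted threshold (limma, smallest adjusted p = 0.198), which 0.00215% of all probes did. Without exposed 4, 22 of 26 tested members were higher (all probes 45.8%), with a median log2 change of 0.38 and 1 higher and 0 lower at an unadjusted p under 0.05 (all probes 2.55% and 5.69%). Without exposed 5, 21 of 37 were higher (all probes 44.9%), with a median of 0.18 and 3 higher and 1 lower at an unadjusted p under 0.05 (all probes 2.57% and 6.16%). The 1 member of exposed 3, 4 of exposed 4 and 16 of exposed 5 that were not tested were well above background on their own array alone.

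The members differed in how far they rested on the background treatment. On the raw median spot signal, with no background subtracted, 62 probes met the rule, of which 61 were among the 154. They were 39 on exposed 3, 8 on exposed 4, 5 on exposed 5, 1 on exposed 1, 2 on exposed 2 and 7 on the control arrays. With normexp correction exposed 3, 4 and 5 held 40, 8 and 6, and the control arrays 7. Raising all levels to the floor of exposed 5 left 53 on exposed 3, 30 on exposed 4 and 36 on exposed 5. The median margin of the members of exposed 5 was 3.70 on the processed and 1.86 on the raw signal, while for exposed 3 it was 3.41 and 3.17.

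**Figure D5:**
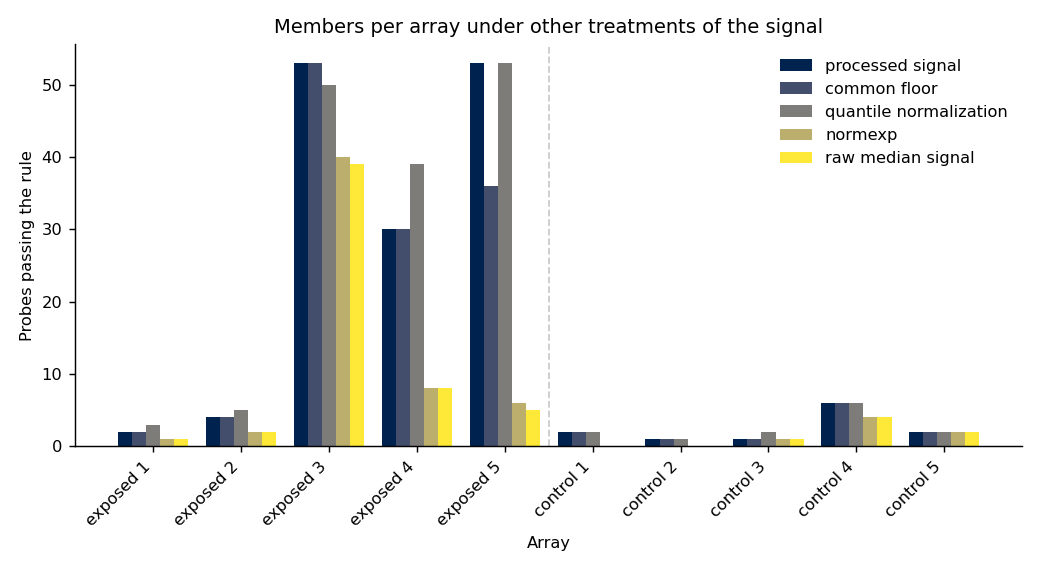
Number of probes that met the rule (vertical axis) by highest array (horizontal axis) under 5 treatments of the signal (bars). Exposed 3 held 53 probes on the processed and 39 on the raw median signal, whereas exposed 5 held 53 and 5.

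Across 11 other settings (those that leave out arrays or members and the stricter margin aside), 52 of the 154 stayed members in each. Some of the 11 only loosen the rule, so that no member could drop out. These were the margin of 2 log2 units, no condition on background, and exposed 5 left out of the second highest. The 52 were 32 of 53 on exposed 3, 5 of 30 on exposed 4, 5 of 53 on exposed 5, 1 of 2 on exposed 1, 2 of 4 on exposed 2 and 7 of 12 on the control arrays. Among them were SINGLET_15475, SINGLET_7579, SINGLET_43731 and UF_Ppr_AF_111149 of exposed 4, SINGLET_23977 and UF_Ppr_AF_118367 of exposed 5, and the neighbouring pair of exposed 2. UF_Ppr_AF_118367 had -0.68, 0.54, -0.33, -0.08 and 4.49 on exposed 1 to 5, against -0.62, -0.78, -0.31, -1.58 and -1.93 on control 1 to 5.

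By the form of their names, 95 members (61.7%) were SINGLET probes, against 52.4% of all probes. A further 25 (16.2%) were CONTIG probes, against 17.1%, and 33 (21.4%) carried the prefix UF_Ppr_AF, against 29.1%. The last was the only member with the prefix UF_Ppr_AM (0.65%, against 1.42%). What these prefixes stand for was not given in the sources used here.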

How the data were processed

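Whole testis RNA of 5 exposed and 5 control tanks was hybridised to 1-colour (Cy3) arrays, per the labels, and Agilent Feature Extraction 10.7.3.1 read the scans, per the submitters' processing notes. The deposited processed intensity is linear, with local background and a spatial trend subtracted, per the file headers. The authors also deposited a table of log2 values, which followed the scanner levels centred on each probe's median (r at least 0.9999 for every array).

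Control spots were left out, as were gene spots flagged as outliers (131 to 281 per array). Intensities were put on the log2 scale, the array's 75th percentile was subtracted and spots of a probe were averaged. That percentile was taken over all gene spots, outliers among them. No gene spot was saturated, and 0 columns belonged to other samples. Signal over background and the number of arrays limit the precision. The members and the lists of settings were chosen with earlier results of these data known. Named probes are the 3 largest margins per array, the 2 members just above and the 2 probes just below the threshold. Any member called, or with 4 or more spots, would have been named, and there was none.

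Groups came from the sample titles. Probes well above background on at least 1 array were compared with limma 3.58.1 in R 4.3.3, checked on simulated data. p-values measure the spread between tanks with 1 array each, so differences between arrays and slides are part of that spread. The numbers of the replicates did not pair the samples: the deviations of same-numbered arrays correlated at 0.009, -0.09, 0.087, 0.04 and -0.299. Alternatives were other margins, floors, scalings, background treatments, filters, slide and replicate blocks, and arrays left out in turn. Normexp (offset 50) ran on median spot signals, since the files hold no mean signal. Other software was Python 3.11.15 with matplotlib 3.10.9, scipy 1.17.1, pandas 2.3.3 and numpy 2.4.6.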

Additional observations from a re-analysis of the deposited data

Results flagged for a closer look

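In 37 groups of 5 values checked (array measures, members per array and the named members on the arrays of the group that does not hold their highest one), 9 held a value far from the rest. The rate of about 1 in 20 by chance holds for independent values and does not apply here. Several measures come from the same array, and the rule used the counts and levels of the members. The 9 are therefore a description with no test. On exposed 5, 40.32% of gene spots were well above background, against 81.95% to 85.09% on the other exposed arrays, 281 spots were outliers, against 139 to 167, and 35.8% of gene spots had a raised neighbour, against 1.62% to 8.20%. On control 5, 2.134% of spots had one, against 0.724% to 0.999% on the other control arrays. Control 4 held 6 members, against 1 to 2 on the other control arrays. Raised neighbours were counted with no condition on background, so the floor of exposed 5 enters its share.

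Among the named members, SINGLET_23977, a member of exposed 5, was low on control 4 (-1.181, against -0.43 to -0.20 on the other controls). SINGLET_45867, a member of exposed 3, was high on control 1 (-4.418, against -8.09 to -7.40). UF_Ppr_AF_100947, a member of control 1, was high on exposed 5 (-4.031, against -7.99 to -6.94 on the other exposed arrays), where it lay near the floor of the array. UF_Ppr_AF_107325, a member of control 5, was high on exposed 1 (0.932, against -0.88 to -0.43).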

How the results depend on the processing

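The 154 members became 583 with a margin of 2 log2 units, 37 with 4, 304 with no condition on background, 277 with exposed 5 left out of the second highest, 64 with normexp and 62 on the raw signal. The count stayed within 1.5 times under quantile normalization (163), median scaling (146), the common floor (137), the lowest detected level as floor (135), outlier spots kept (154), the authors' deposited table (154) and without the 4 members in a raised patch or with differing spots (150). With an array left out it lay between 103, without exposed 3, and 233, without exposed 5, where exposed 4 held 142 members. With median scaling exposed 4 held 14. Between 87.4% and 96.1% of the members were on exposed arrays in every setting. Normexp, the lowest detected level as floor and the omission of doubted members were chosen after seeing the data, as were the common floor in the test and the values within slides. A raised patch meant at least 3 raised spots among the 6 nearest, and members of exposed 5 were exempt from this part of the omission. CONTIG3939 of exposed 5, with 3 raised neighbours, was thus kept.

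The 2 probes called by limma became 3 when 3 arrays of either group had to be well above background, and 0 with quantile normalization, median scaling, normexp, the common floor or the replicate block. Their number at an unadjusted p under 0.05 was then 4159, 4079, 2747, 4203 and 3821. There was 1 with slide as a fixed block and 1 with trend and robust variance, and 0 to 3 with an array left out (2666 to 6077 at an unadjusted p under 0.05). The members called were 0 in each of the 23 fits. Same-numbered arrays share only a number, none correlated best with its own, and the replicate block left 0 probes called.

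None of the named members was called, and the sign of their log2 change turned 20 times over 25 members and 23 fits. It was -0.023 for SINGLET_13162, -0.22 for SINGLET_8212, -0.29 for UF_Ppr_AF_107325 and -0.07 for UF_Ppr_AF_116659 with a fixed slide block, and with a random block it was -0.10 for UF_Ppr_AF_107325. With normexp it was -0.31 for SINGLET_47892 and -0.11 for UF_Ppr_AF_107325, and with the common floor it was -0.63 for SINGLET_47892. With arrays left out in turn the log2 change lay between -1.03 and 0.892 for CONTIG5421, -0.18 and 1.32 for SINGLET_30236, -0.823 and 0.153 for SINGLET_42736, -0.503 and 1.76 for SINGLET_47892, -0.088 and 1.83 for SINGLET_5702, -0.076 and 1.20 for UF_Ppr_AF_101730, -0.953 and 0.108 for UF_Ppr_AF_106460, and -0.792 and 1.16 for UF_Ppr_AF_107325. The cause was not tested. Normexp on the mean spot signal was not run.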
